A study of Mus musculus with 6 samples.

Results

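Integrins and laminins form the connection between a cell and the matrix below it. An integrin is a receptor of 1 alpha and 1 beta chain that spans the membrane, and its chain pair sets what it binds: collagens, laminins, ligands with an RGD motif such as fibronectin and vitronectin, or counter-receptors on other cells. A laminin is a trimer of 1 alpha, 1 beta and 1 gamma chain that assembles into the sheet of the basement membrane, and in the lung such sheets lie under the airway and alveolar epithelium and around vessels, muscle and nerve. The genes described here are every chain of both families that the gene table names, chosen by symbol alone (Itga or Itgb, or Lama, Lamb or Lamc, followed by the chain's number or letter). That gave 37 genes of the 41388 in the table, namely 18 integrin alpha, 8 integrin beta and 11 laminin chains, and all 37 passed the filter on low counts, among 18660 genes tested.

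RNA was sequenced from lungs of adult mice collected at ZT7, or 7 h into the light phase. The KO group had 3 libraries (KO1 to KO3) from Zpbp2 KO mice, a single strain (B6.129S7-Zpbp2tmZuk/Mmjax, labelled C57BL/6J after its background) in which exons 1 to 3 of Zpbp2 are deleted. The WT group had 3 libraries (WT1 to WT3) from C57BL/6J mice born in the same colony, and no other treatment was applied to either group. The study asked how the Zpbp2 region and the circadian clock act on each other, in human samples and in several mouse organs with the lung among them. The comparison here asks how the matrix receptors and laminins differ between the genotypes in lung at ZT7.

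Libraries held 59134950 to 71354388 counts. Zpbp2 itself had 20, 15 and 7 counts in WT1 to WT3 and 1, 0 and 0 in KO1 to KO3, in the direction of the labels. The counts of KO2 and KO3 differed by 1.72 to 1.93 times the counting variance for genes with 20 to fewer than 20000 counts in the pair, and by 3.27 times above that. From the lowest to the highest counts the ratio grew from 1.86 to 50.6 for WT1 and WT2 and from 3.75 to 159 for KO1 and KO2. The labels and methods give KO2 and KO3 as separate mice; why they are so alike was not tested. They were summed and treated as 1 sample (n = 3 for WT and n = 2 for KO). WT3 and KO1 stood apart from the other 4 libraries along the first principal component (52.3% of the variance). In them the summed level of 15 squamous epithelium markers was 4707 and 8779 CPM (counts per 1e6 of the scaled library size), against 36.7 to 47.6 CPM elsewhere, and that of 10 skeletal muscle markers was 3544 and 5246 CPM, against 38.8 to 108 CPM. None of the 37 genes was above 1.5 times the other libraries in both WT3 and KO1. Lung RNA is a mixture, so fewer cells of a type and less RNA per cell cannot be told apart in any value below.

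At a Benjamini-Hochberg adjusted p of at most 0.05 in edgeR's quasi-likelihood test, 4 of the 37 genes were called, and all 4 were lower in KO: Itga1, Itga4, Itgal and Lama4. They fell to between 63.6% and 72.5% of the WT mean. These calls depended on the setting. In edgeR's exact test, which called 1.12% of all genes, Itga4 was called (adjusted p = 0.0355) but Itga1 (0.166), Itgal (0.193) and Lama4 (0.177) were not, and with an offset for exon length and GC content none of the 4 was called and the log2 fold change of Itga1 went from -0.59 to -0.27. DESeq2 called 11 of the 37, these 4 among them, where it called 21.0% of all genes. Of all tested genes, 2.28% were called in either direction and 0.906% were called lower, against 10.8% of the integrin and laminin chains. By estimate, 29 of the 37 were lower in KO (78.4%, beside 47.8% of all tested genes) and 8 were higher, with a median log2 fold change of -0.21, while the median over all tested genes was 0.02. With all 6 libraries kept as separate samples, 9 of the 37 were called, 8 lower and 1 higher, where 18.9% of all genes were called in either direction and 9.07% lower. The WT and KO libraries did not overlap for 18 of the 37 chains, 15 of them lower and 3 higher in KO, where 40.9% of all tested genes did not overlap in either direction and 20.9% were lower without overlap.

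The upstream sequences are shown for the called genes that have an entry in the RefSeq promoter table (GRCm38.p6), as the 250 bases before the annotated start on the gene's own strand, because these are the windows in which motifs were searched. Capitals mark a GC box. Itga1 lies on the minus strand at chr13:115101965-115102214, and Itga4 on the plus strand at chr2:79255176-79255425.
Itga1: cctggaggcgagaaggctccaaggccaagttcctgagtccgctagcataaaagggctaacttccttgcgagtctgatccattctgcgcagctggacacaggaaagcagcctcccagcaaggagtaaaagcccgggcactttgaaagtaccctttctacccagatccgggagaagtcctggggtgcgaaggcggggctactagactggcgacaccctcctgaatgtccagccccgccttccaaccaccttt
Itga4: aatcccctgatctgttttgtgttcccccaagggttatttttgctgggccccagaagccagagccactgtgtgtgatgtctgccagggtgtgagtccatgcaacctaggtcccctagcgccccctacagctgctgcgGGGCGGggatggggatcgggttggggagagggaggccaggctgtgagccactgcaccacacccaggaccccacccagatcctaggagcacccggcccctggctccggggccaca

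Of the 37 chains, 23 had an entry, with 26 promoters between them, and of the called genes Itgal and Lama4 had none. Motifs were searched as letters on both strands. The GC box (GGGCGG), the site of Sp1-family factors, was in 9 of the 26 promoters, which belong to 8 genes, namely Itga3, Itga4, Itga5, Itgam, Itgb1, Itgb5, Lama5 and Lamb1, against 32.7% of all 32851 promoters. Of the motifs through which clock factors bind DNA, the E-box (CACGTG) was in 0 of 26 (6.02% of all promoters), the core of the RORE (AGGTCA) in 0 of 26 (14.0%) and the D-box (TTATGNAA) in that of Itgam alone (3.07%). The TATA box letters (TATAAA) were in 0 of 26 (12.4%). These counts describe letters in these windows and say nothing of the factors.

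Levels of different genes were compared per kb of exon, counting all annotated exons of a gene merged over its transcripts. Itgb1, the beta chain that most alpha chains of the matrix receptors pair with, was by far the most abundant at 181 CPM per kb in WT and 179 in KO. It was followed by Itga3 at 55.3, Lamb2 at 50.4, Itgb5 at 44.1, Itga8 at 40.6 and Lamc1 at 36.1 CPM per kb in WT, and these 6 genes had the same order in KO. Itgb1, Itga3 and Itga8 stood above their next neighbour in every WT library, whereas Lamb2 and Itgb5 overlapped with theirs. From Itga6 (22.5 CPM per kb) to Itgb7 (17.7) each gene overlapped with the next. Of the 36 neighbouring pairs in the whole order, 22 overlapped between WT libraries. At the low end were Lama1 at 0.383, Itgb8 at 0.243 and Itgad at 0.176 CPM per kb in WT. The laminin chains ranged from Lama1 to Lamb2, with Lama5 (30.2 CPM per kb in WT) the most abundant alpha chain.

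**Figure D1:**
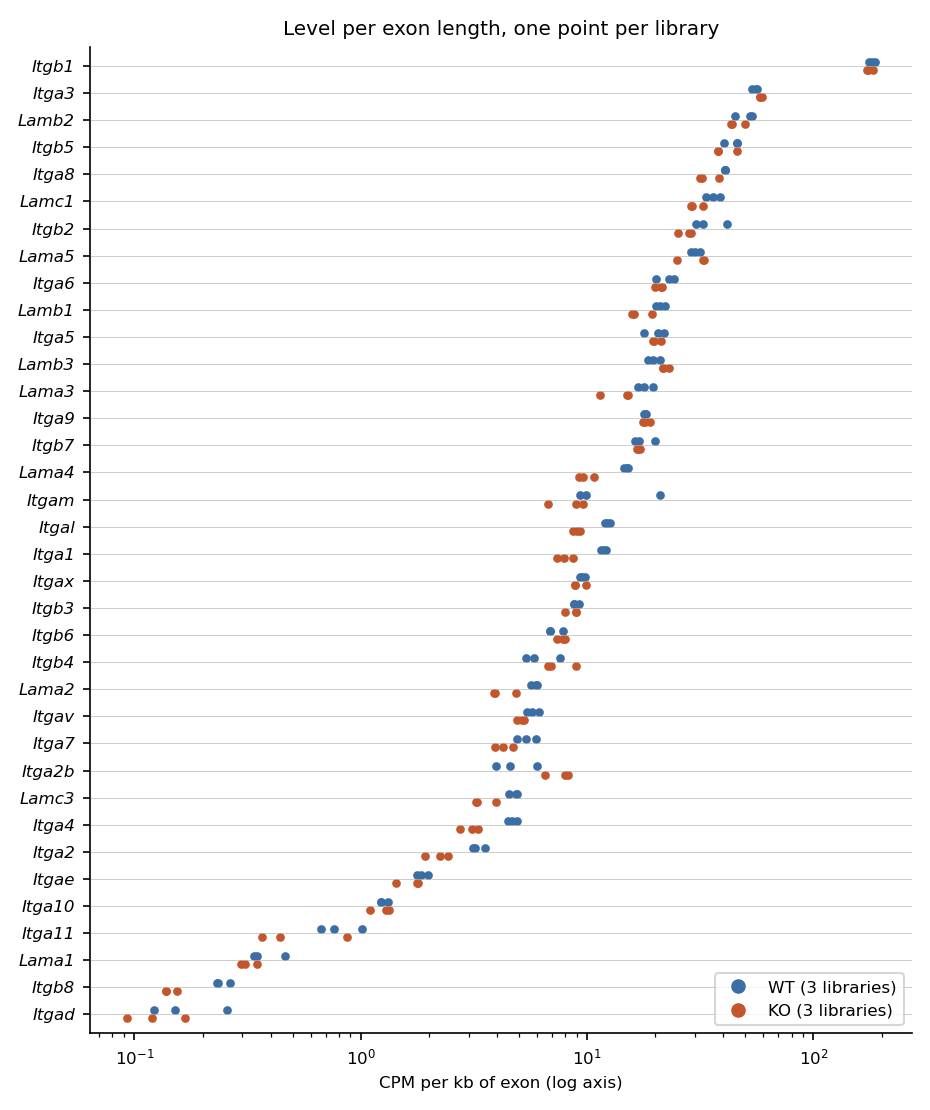
Level of 36 of the 37 integrin and laminin chains in CPM per kb of exon (log axis), 1 point per library, WT in blue and KO in orange, ordered by the WT mean. Itgb1 lies apart at the top (181 CPM per kb in WT) and Itgad at the bottom (0.176), and most neighbours overlap.

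The collagen receptors are the alpha chains Itga1, Itga2, Itga10 and Itga11, each of which pairs with Itgb1. All 4 were lower by estimate, as 47.8% of all tested genes were, and 1 was called, beside 2.28% of all genes. Itga1, a chain that favours the collagen of basement membranes, was at 213, 226 and 222 CPM in WT1 to WT3 and at 137, 161 and 148 CPM in KO1 to KO3. Every KO library was thus below every WT library. Its mean was 220 ± 6.45 CPM in WT (SD, n = 3) and 145 ± 12.5 CPM in KO (SD, n = 2). The log2 fold change was -0.59, with an SE of 0.08 and an adjusted p of 0.0446. Itga1 (ENSMUSG00000042284) spans positions 114953096 to 115101964 of chromosome 13 and has the longest exon sequence of all 37 chains, 18.6 kb.

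Itga2, the receptor chain for fibrillar collagen on platelets and epithelium, lies beside Itga1 on the same chromosome. It was at 25.2, 22.8 and 22.4 CPM in WT and at 13.7, 17.3 and 16.0 CPM in KO, again without overlap. Its log2 fold change was -0.62 (SE 0.12), with an adjusted p of 0.0592. With 6 separate libraries the adjusted p was 0.0151, in a range of 4.06e-05 to 0.318 over all alternatives. Itga10 (log2 fold change -0.06, SE 0.13) and Itga11 (-0.36, SE 0.38) overlapped between the genotypes, and Itga11 was low, at 1.88 to 5.22 CPM.

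The laminin-binding alpha chains are Itga3, Itga6 and Itga7. In edgeR with KO2 and KO3 summed 0 of the 3 were called (2.28% of all genes), and 0 also in DESeq2 (21.0%). An unadjusted p of at most 0.05 in edgeR was found for 1 of them, beside 27.3% of all tested genes. Itga3, the epithelial laminin receptor, was the most abundant alpha chain per kb. It was at 307, 318 and 322 CPM in WT and at 338, 331 and 331 CPM in KO. The KO libraries were the higher ones without overlap, but by little, and the log2 fold change of 0.09 (SE 0.05) was not called (adjusted p = 0.337). Itga6, which pairs with Itgb4 in hemidesmosomes, overlapped (-0.12, SE 0.09, and 0.02 with the length and GC offset), and Itga7, the laminin receptor of muscle, was lower without overlap at -0.29 (SE 0.11, adjusted p = 0.161, lowest and highest over alternatives 0.0408 and 0.807).

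Among the alpha chains that bind RGD motifs, Itga8, which with Itgb1 binds nephronectin, was at 298, 298 and 300 CPM in WT and at 281, 232 and 236 CPM in KO. The WT libraries hardly differed, and all KO libraries were below them by an amount that varied (log2 fold change -0.21, SE 0.08, adjusted p = 0.191, lowest and highest over alternatives 0.0432 and 0.947). Without KO1 its log2 fold change was -0.35, and with the length and GC offset -0.07. Itga2b, the platelet chain that forms the fibrinogen receptor with Itgb3, was the 1 chain called higher with 6 separate libraries. It was at 32.6, 21.6 and 24.9 CPM in WT and at 35.4, 43.4 and 45.0 CPM in KO, so that KO1 was close to WT1. Its log2 fold change was 0.60 (SE 0.20) with an adjusted p of 0.141, and with 6 separate libraries 0.65 with an adjusted p of 0.0410 (range over alternatives 0.0242 to 0.419). The summed level of 8 platelet and megakaryocyte markers, all above 1 CPM in every library, was 66.4 to 92.3 CPM in WT and 92.4 to 127 CPM in KO, and its part in the Itga2b values was not tested. Itgb3, the partner chain, was at 51.5 to 54.3 CPM in WT and 47.2 to 52.8 CPM in KO (log2 fold change -0.06, SE 0.07). The broad fibronectin receptor Itga5 (0.03, SE 0.10, and -0.02 with the offset for length and GC content) overlapped, and Itgav was at -0.19 (SE 0.07, adjusted p = 0.173), which turned to 0.02 with the length and GC offset.

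Itga4 and Itga9 are close relatives that share ligands such as Vcam1. Itga4, which pairs with Itgb1 or Itgb7 on leukocytes, was at 68.8, 65.3 and 62.6 CPM in WT and at 38.3, 43.5 and 46.1 CPM in KO. The highest KO library was below the lowest WT library, and the means were 65.6 ± 3.08 CPM (SD, n = 3) and 41.6 ± 4.56 CPM (SD, n = 2). The log2 fold change was -0.65 (SE 0.09, adjusted p = 0.0472), the largest fall among the called chains. Itga4 (ENSMUSG00000027009) spans positions 79255426 to 79333123 of chromosome 2 and shares 8.04% of its exon bases with Cerkl on the opposite strand, which was at 0.795 to 2.35 CPM. Itga9, in contrast, was at 140, 139 and 137 CPM in WT and at 145, 139 and 136 CPM in KO. The difference of 0.04 on the log2 scale (SE 0.05, adjusted p = 0.682) turned its sign under some settings. Of the partners and ligands of Itga4, Itgb7 was at -0.07 (SE 0.10, and -0.24 with the length and GC offset) and Vcam1 at -0.06 (SE 0.06, and 0.13 with that offset), and neither was called.

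The leukocyte alpha chains pair with Itgb2 (Itgal, Itgam, Itgax, Itgad) or Itgb7 (Itgae), and all 5 were lower by estimate (47.8% of all genes were) and 1 was called (2.28%). Itgal, the chain of the lymphocyte receptor that binds Icam1, was at 83.3, 80.1 and 79.1 CPM in WT and at 56.7, 59.3 and 60.9 CPM in KO. Both groups were tight and well apart, at 80.8 ± 2.19 CPM (SD, n = 3) and 58.4 ± 2.40 CPM (SD, n = 2). The log2 fold change was -0.46 (SE 0.05, adjusted p = 0.0446). Itgal (ENSMUSG00000030830) spans positions 127296260 to 127335138 of chromosome 7, in the stretch that also holds Itgam, Itgax and Itgad.

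Itgam, a chain of macrophages and neutrophils, had 1 library far from the rest: it was at 46.7, 49.5 and 106 CPM in WT and at 33.6, 45.1 and 48.1 CPM in KO. WT3 thus carried the difference in means, and the log2 fold change of -0.74 had an SE of 0.42 (adjusted p = 0.326). Itgam shares 68.7% of its exon bases with the model Gm49368 on the same strand. How reads in shared bases were counted is not given in the sources used here, so its level is uncertain. Itga10 shares 33.5% with Gm42957 and Itga1 3.68% with Gm49395 in the same way. Itgb2 was likewise highest in WT3 (99.5, 92.3 and 126 CPM in WT against 77.1, 88.0 and 86.2 CPM in KO, log2 fold change -0.36, SE 0.15, adjusted p = 0.207). Itgax (-0.07, SE 0.05), Itgae (-0.21, SE 0.14) and Itgad (-0.50, SE 0.37, at most 1.15 CPM) overlapped between the genotypes.

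Markers of leukocytes differed in part with the genotype. The summed level was 228 to 265 CPM in WT and 201 to 210 CPM in KO for 7 B cell markers and 448 to 550 CPM and 383 to 398 CPM for 8 alveolar macrophage and monocyte markers, while 8 T cell markers (47.1 to 65.9 and 65.9 to 66.8 CPM) were not lower in KO and 8 neutrophil markers (102 to 149 and 95.6 to 123 CPM) overlapped. All genes of these lists were above 1 CPM in every library except 2 of the neutrophil list, and none was at 0 throughout. Their part in the values of Itga4 and Itgal was not tested.

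Of the 8 beta chains, 0 were called in edgeR with KO2 and KO3 summed, beside 2.28% of all genes. An unadjusted p up to 0.05 was found for 1 of them, as for 27.3% of all tested genes. Itgb8 was the 1 called in DESeq2 (beside 21.0% of all genes) and with 6 separate libraries (beside 18.9%). Itgb1 was at 717, 760 and 744 CPM in WT and at 751, 704 and 709 CPM in KO. The genotypes overlapped, and the log2 fold change was -0.02 (SE 0.06, adjusted p = 0.870), while its collagen-binding partner Itga1 fell. Itgb8, which pairs with Itgav to release latent Tgfb1, was low but distinct, at 2.58, 2.93 and 2.55 CPM in WT and at 1.53, 1.70 and 1.52 CPM in KO. Its log2 fold change of -0.77 (SE 0.15) was the most negative of all 37 and had an adjusted p of 0.0617 (0.0142 with 6 separate libraries, range over alternatives 0.000943 to 0.590). Itgb4, the hemidesmosome chain, was at 0.33 (SE 0.19) and overlapped. Itgb5 (-0.07, SE 0.11), Itgb6 (0.09, SE 0.08) and Itgb7 overlapped as well.

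**Figure D2:**
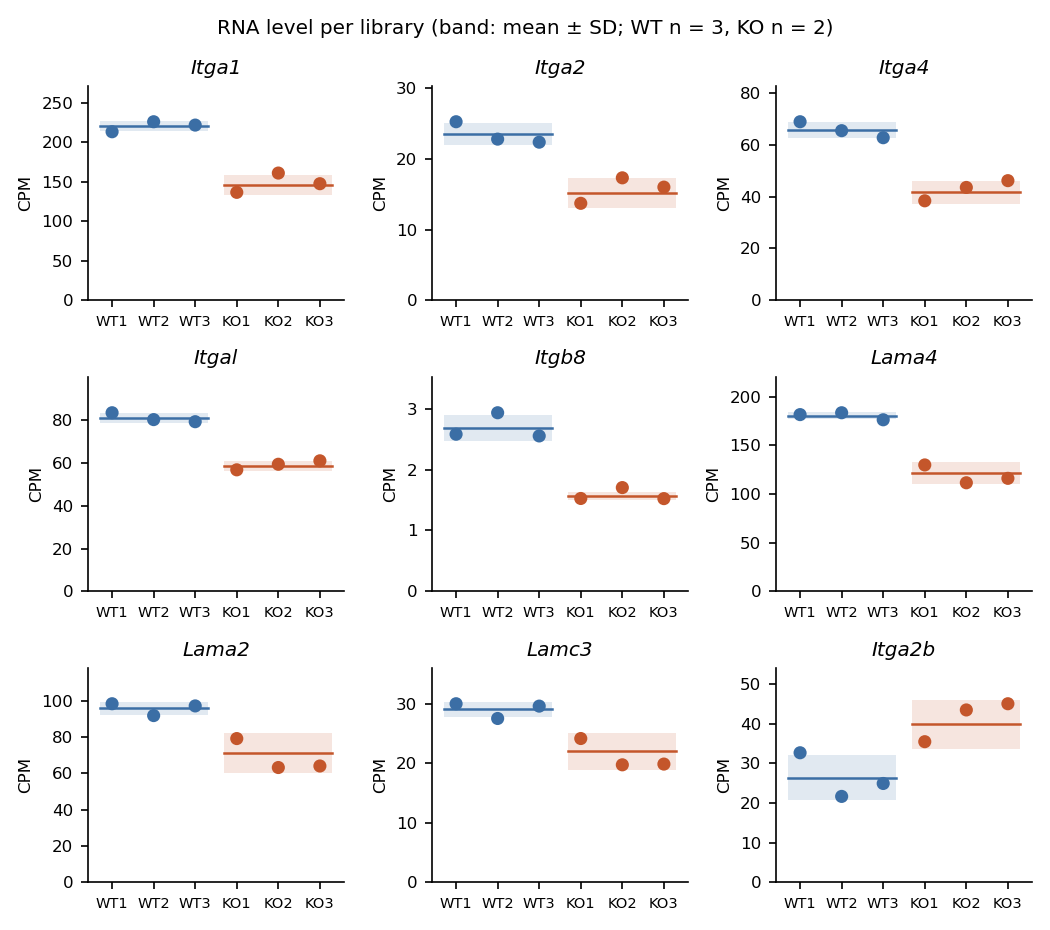
CPM in each library for the 9 chains called with KO2 and KO3 summed or with 6 separate libraries (linear axes from 0); lines and bands give the mean ± SD, with n = 3 for WT and n = 2 for KO. The KO libraries lie below all WT libraries in 8 panels, and above them for Itga2b.

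The laminin alpha chain decides which tissue a laminin is made for and which receptor it meets. All 5 alpha chains were lower by estimate (47.8% of all tested genes were) and 1 was called in edgeR with KO2 and KO3 summed (2.28% of all genes). Lama4, the alpha chain of vessel walls, fat and muscle, was at 181, 183 and 176 CPM in WT and at 130, 111 and 116 CPM in KO. The genotypes did not overlap, and the means were 180 ± 3.75 CPM (SD, n = 3) and 122 ± 11.3 CPM (SD, n = 2). The log2 fold change was -0.56 (SE 0.07, adjusted p = 0.0446). Lama4 (ENSMUSG00000019846) spans positions 38965515 to 39110188 of chromosome 10.

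Lama2, the main alpha chain of muscle and nerve basement membranes, was at 98.4, 91.9 and 97.2 CPM in WT and at 79.2, 63.3 and 64.1 CPM in KO. The groups did not overlap, and the log2 fold change was -0.42 (SE 0.10, adjusted p = 0.0791, and 0.0205 with 6 separate libraries, in a range of 0.00206 to 0.646 over alternatives). Lama3, the alpha chain of epithelial anchorage, was at -0.45 without overlap (SE 0.15, adjusted p = 0.135). DESeq2 called it (adjusted p = 0.0158, range over alternatives 0.0158 to 0.634). Lama5, the most abundant alpha chain of the adult lung here, was at 360, 329 and 341 CPM in WT and at 285, 373 and 371 CPM in KO. KO1 was the lowest library and KO2 and KO3 the highest, so that the log2 fold change of -0.06 (SE 0.13, adjusted p = 0.812) turned to 0.12 without KO1. Lama1, mainly an embryonic chain, was low at 2.88 to 4.50 CPM (-0.28, SE 0.19).

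Among the beta and gamma chains, Lamb2 was at 319, 275 and 326 CPM in WT and at 302, 265 and 264 CPM in KO, and overlapped (log2 fold change -0.11, SE 0.10, adjusted p = 0.541). Lamc1, the gamma chain of most laminins, was at 298, 279 and 320 CPM in WT and at 268, 238 and 241 CPM in KO, lower without overlap but not called (-0.23, SE 0.08, adjusted p = 0.164). Lamc3 was at 30.0, 27.5 and 29.6 CPM in WT and at 24.1, 19.7 and 19.9 CPM in KO. It did not overlap either, with a log2 fold change of -0.40 (SE 0.10), an adjusted p of 0.0872 and, with 6 separate libraries, of 0.0223 (range over alternatives 0.00523 to 0.643). No beta or gamma chain was called in edgeR with KO2 and KO3 summed (0 of 6, beside 2.28% of all genes), and 4 had an unadjusted p up to 0.05 (27.3% of all genes). DESeq2 called Lamc1 and Lamc3 (2 of 6, beside 21.0% of all genes).

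In the laminin set made of Lama4, Lamb1 and Lamc1, all 3 estimates were negative, at -0.56, -0.25 (SE 0.10) and -0.23, with the alpha chain the lowest per kb in both genotypes (14.9 CPM per kb in WT and 10.1 in KO, against 21.1 and 17.6 for Lamb1). With the length and GC offset these estimates were -0.37, -0.12 and -0.14. Lama5, which joins the same beta and gamma chains, had more RNA per kb than Lamb1 (30.2 and 28.8 CPM per kb) and no steady sign, while Lama2 (5.87 and 4.37) and Lama1 (0.383 and 0.315) had less. Lamb3, a chain of epithelial anchorage, had the opposite sign, at 129, 123 and 138 CPM in WT and at 152, 144 and 143 CPM in KO. It was higher without overlap but not called (log2 fold change 0.19, SE 0.07, adjusted p = 0.156).

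Markers of fat and of heart muscle were lower in KO without overlap, like Lama4 and Lama2. The summed level of 12 adipocyte markers, 10 of them above 1 CPM in every library, was 1134 to 1820 CPM in WT and 351 to 532 CPM in KO, and that of 11 cardiomyocyte markers, 9 of them above 1 CPM, was 2633 to 7437 CPM and 1366 to 1601 CPM. For 8 endothelial markers it was 4113 to 4474 CPM in WT and 3835 to 4688 CPM in KO, for 7 smooth muscle markers 1024 to 1638 and 1199 to 1929 CPM, and for 7 Schwann cell and nerve markers 858 to 912 and 852 to 976 CPM, all with overlap. The sum of 8 alveolar type 2 markers was 25162 to 26745 CPM in WT and 34884 to 37011 CPM in KO, with all 8 higher by estimate. That of 8 alveolar type 1 markers was 5819 to 6246 and 6586 to 7065 CPM, but 4 were higher by estimate and 4 lower. The 6 mesothelium markers overlapped (472 to 503 and 478 to 710 CPM). No marker was at 0 in every library, and the part of these lists in the integrin and laminin values was not tested. With the squamous marker level as a covariate, 8 of the 37 chains were called, Itga1, Itga4, Itgal and Lama4 among them, where 10.8% of all genes were called. Without both WT3 and KO1, 11 chains were called where 11.9% of all genes were, but KO was then the single sum of KO2 and KO3, which was assumed to vary like WT1 and WT2. The log2 fold changes in that setting were -0.51 for Itga1, -0.58 for Itga4, -0.44 for Itgal and -0.68 for Lama4.

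**Figure D3:**
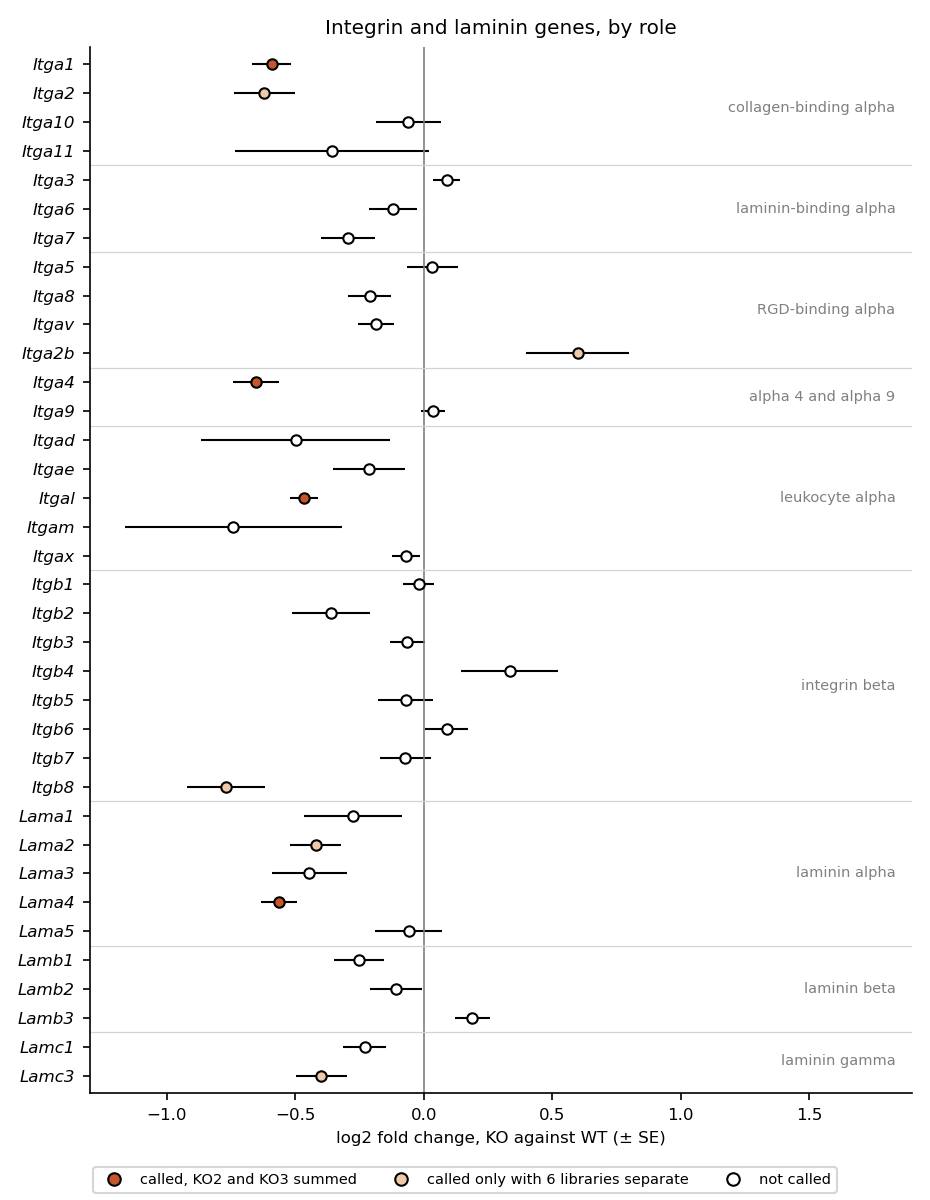
Log2 fold change of 36 of the 37 chains, KO against WT, ± SE, grouped by role; dark points were called with KO2 and KO3 summed, pale points with 6 separate libraries alone, and open points in neither. Most points lie left of 0 (29 of 36), and the called ones, Itga1, Itga4, Itgal and Lama4, are between -0.65 and -0.46.

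The calls rested on few samples. Leaving out WT1, WT2 or WT3 gave adjusted p-values of 0.170, 0.189 and 0.123 for Itga1. Without KO1 the KO group was the single sum of KO2 and KO3, with no spread of its own, so that fit cannot show whether a call depends on KO1. Its log2 fold changes were -0.51 for Itga1, -0.55 for Itga4 and -0.43 for Itgal. The other called chains also lost their call without WT1, WT2 or WT3 (0.171, 0.189 and 0.123 for Itga4, 0.170, 0.189 and 0.123 for Itgal, and 0.170, 0.189 and 0.123 for Lama4). In addition Itga4 was at 0.0520 without KO2 and Itga1 at 0.0511 without KO3. Their estimates moved little, with Itga1 between -0.63 and -0.51 and Lama4 between -0.66 and -0.55 over these settings.

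Exon length moved with the fold changes. Across 18524 tested genes with a length, Spearman's rho between exon length and log2 fold change was -0.33, and across the 37 chains, which share these libraries, it was -0.31. Most integrin and laminin genes have a long exon sequence, with 3 of the 37 (Itgb2, Itgb5 and Itgb7) below the median of all genes. Their median exon length was 7.02 kb (range 2.77 to 18.6 kb) against 3.79 kb over all genes, and 19.4% of all genes were longer than that median. When a smooth trend on length and GC content was taken out of each library as an offset, rho became 0.03 and 0.04, and the median log2 fold change of the chains became -0.14 with 27 of 37 lower. In that fit 0 of the 37 were called in edgeR and 12 had an unadjusted p up to 0.05 (22.7% of all genes had), while 4 genes (0.0214%) were called in the whole table.

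The offset did not move all called chains alike. Itgal, of ordinary length for the group at 6.57 kb, stayed at -0.42 (adjusted p = 0.0801). Itga1, the longest, went from -0.59 to -0.27 (adjusted p = 0.0906), Itga4 from -0.65 to -0.38 (adjusted p = 0.0867) and Lama4 from -0.56 to -0.37 (adjusted p = 0.117). With the offset and 6 separate libraries, 9 of the 37 were called (24.3%, beside 12.2% of all genes), namely Itga1, Itga2, Itga4, Itgal, Itgb8, Lama4 and Lamc3 lower and Itgb6 and Lamb3 higher. Lama2, with 16.3 kb of exon, went from -0.42 to -0.14.

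**Figure D4:**
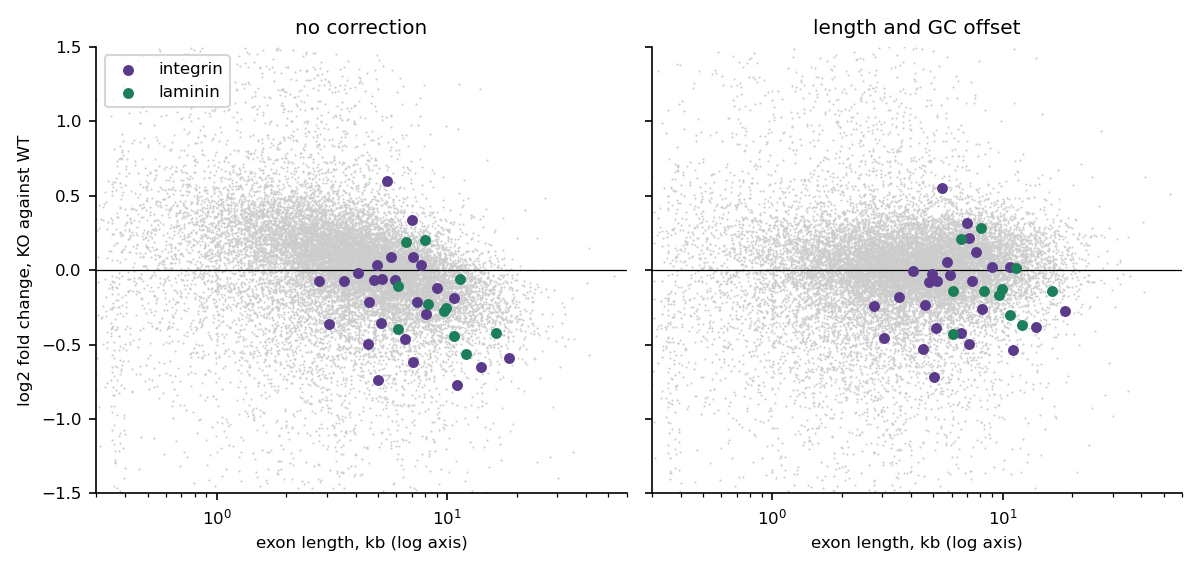
Log2 fold change against exon length (log axis) for all tested genes in grey and the integrin and laminin chains in colour, without correction on the left and with the length and GC offset on the right; 652 and 630 genes beyond the axes are not drawn. The grey cloud slopes down on the left (rho -0.33) and is level on the right (0.03), and the chains have a median length of 7.02 kb against 3.79 kb for all genes.

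Of 65 genes that work with these chains, listed by role, 64 were tested, Madcam1 being too low. In this list 5 were called (7.81%, beside 2.28% of all tested genes), all lower in KO: Dst, Nid2, Smoc1, Sgcd and Dmd. With 6 separate libraries 18 were called (28.1%, beside 18.9% of all genes), 11 lower and 7 higher. Fold changes were negative by estimate in 38 of the 64, with a median of -0.07.

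Of the 10 basement membrane partners of laminin, 2 were called (2.28% of all genes). Nid2, a nidogen that links laminin to the collagen network, was at 28.2, 29.1 and 30.8 CPM in WT and at 20.2, 17.9 and 17.4 CPM in KO (log2 fold change -0.63, SE 0.08, adjusted p = 0.0446). Smoc1, a matricellular protein of basement membranes, was at 17.8, 16.3 and 14.6 CPM in WT and at 8.09, 8.26 and 8.32 CPM in KO, close to 50.7% of the WT level (-0.98, SE 0.11, adjusted p = 0.0446). Both fell without overlap, and with the length and GC offset they were at -0.65 and -1.06, with an adjusted p of 0.0801 each. Sparc, the most abundant gene of this role per kb, was at 1580, 1551 and 1714 CPM in WT and at 1967, 1919 and 1919 CPM in KO (0.27, SE 0.07, adjusted p = 0.0832).

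The other laminin receptors on the list were Bcam and 8 genes of the dystroglycan and dystrophin complex of muscle and other cells, and 2 of the 9 were called (2.28% of all genes). Sgcd, a sarcoglycan, was at 7.97, 7.74 and 7.76 CPM in WT and at 4.56, 4.05 and 3.11 CPM in KO (-0.94, SE 0.14, adjusted p = 0.0474), and Dmd, dystrophin, was at 45.3, 43.6 and 44.1 CPM and at 33.6, 33.9 and 31.8 CPM (-0.41, SE 0.05, adjusted p = 0.0446). Both fell without overlap, but with the length and GC offset Dmd, a long transcript, was at -0.03 (adjusted p = 0.889) and Sgcd at -0.74 (adjusted p = 0.109). Bcam, a receptor for Lama5 and the most abundant of this role, was at 639, 612 and 665 CPM in WT and at 814, 781 and 778 CPM in KO (0.33, SE 0.06, adjusted p = 0.0585).

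Of the 4 hemidesmosome partners Dst alone was called (2.28% of all genes). It was at 425, 443 and 454 CPM in WT and at 295, 301 and 289 CPM in KO (-0.57, SE 0.06, adjusted p = 0.0446), and with the length and GC offset at -0.15 (adjusted p = 0.431). Cd151, the tetraspanin partner of laminin receptors, was at 250, 244 and 258 CPM in WT and at 284, 254 and 254 CPM in KO (0.11, SE 0.07, and -0.02 with that offset). Col17a1 was the only gene of the list with WT3 and KO1 both above 1.5 times the other libraries, at 12.5, 12.0 and 41.9 CPM in WT and at 67.1, 10.3 and 10.7 CPM in KO, the same libraries in which squamous epithelium markers were high.

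Inside the cell, 0 of 24 activators and adaptors and 0 of 5 kinases were called in edgeR with KO2 and KO3 summed, beside 2.28% of all genes. An unadjusted p up to 0.05 was found for 4 and 2 of them (27.3% of all genes), and with 6 separate libraries 4 and 1 were called (18.9% of all genes). Tns1, the most abundant adaptor, was at 2007, 1875 and 1966 CPM in WT and at 1810, 1761 and 1748 CPM in KO (-0.12, SE 0.06, and 0.06 with the length and GC offset), and Src at 83.4, 84.6 and 87.2 CPM and at 92.9, 95.0 and 91.0 CPM (0.13, SE 0.05). Neither overlapped, and both differences were small. Tln2, a talin that activates integrins, differed more (chosen after its values were seen), at 68.4, 73.2 and 72.3 CPM in WT and at 52.1, 43.1 and 40.7 CPM in KO. Its log2 fold change was -0.60 (SE 0.10, adjusted p = 0.0518, 0.0105 with 6 separate libraries and 0.215 with the length and GC offset, the range over alternatives being 6.54e-06 to 0.215). Of 12 ligands tested 0 were called in edgeR with KO2 and KO3 summed, beside 2.28% of all genes. An unadjusted p up to 0.05 was found for 3 ligands (27.3% of all genes), and 2 were called with 6 separate libraries (18.9%). Icam1, the ligand of Itgal and Itgam, was at 468, 493 and 492 CPM in WT and at 518, 513 and 516 CPM in KO (0.10, SE 0.06, adjusted p = 0.336), and every KO library exceeded every WT library. Fn1 was at 1323 CPM in WT3 and 511 to 694 CPM elsewhere.

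Some chains lie on the chromosome of the deletion. Zpbp2 is on chromosome 11, which also carries Itga3 (3.47 Mb from it), Itga2b (3.89 Mb), Itgb3 (6.05 Mb), Itgb4 (17.4 Mb) and Itgae (25.4 Mb). In edgeR with KO2 and KO3 summed 0 of these 5 were called, beside 2.28% of all genes. Itga2b alone had an unadjusted p of at most 0.05 in that fit (0.0294), beside 27.3% of all genes. With 6 separate libraries and in DESeq2, Itga2b was the 1 called, beside 18.9% and 21.0% of all genes. The 4 called chains lie on chromosomes 13, 2, 7 and 10.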

How the data were processed

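RNA sequencing of lung was analysed from the raw counts that the authors deposited, integers that had not been normalized. Per the submitters' processing notes the authors used Trimmomatic 0.36, STAR 2.5.3a, Picard 2.9.0 and HTSeq 0.6.0 on mm10 (GRCm38); whether counting used the strand is not given in the sources used here, so counts of overlapping genes are uncertain. Groups and replicate numbers came from the labels. The members and all lists were chosen with earlier results of these data known.

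Counts were tested in R 4.3.3 with edgeR 4.0.16 (filterByExpr, TMM scaling, glmQLFit and glmQLFTest, two-sided), with Benjamini-Hochberg adjustment over all tested genes and calls at an adjusted p of at most 0.05. KO2 and KO3 were summed in the fit, and their mean CPM counted as 1 replicate in each SD. CPM used TMM-scaled library sizes, and the SE was the estimate divided by the root of its F statistic. The p-values set the difference between the genotypes against the spread between these samples, moderated across genes. With KO2 and KO3 summed, KO gives only 2 samples to that spread. Exon lengths and coordinates came from GENCODE M21 on GRCm38, which holds 97.5% of the table's gene identifiers. An exon length is that of all annotated exons of a gene merged, and can exceed that of any single transcript. In simulated data of the same size and 18366 genes, 24 of 98 genes changed by 1 on the log2 scale (24.5%) and 69 of 98 changed by 2 (70.4%) were called. Of 18170 unchanged genes 21 were called (0.116%), so the share of false calls among all calls was above the nominal 0.05. Changes below 1 were not simulated, while the estimates of the 37 chains lay between -0.77 and 0.60, so these recovery rates do not cover them.

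Full values were given for chains called with KO2 and KO3 summed, or with 6 separate libraries and no overlap, for the most abundant chain per kb of each role, and for chains high in both WT3 and KO1 (17 in all). Itgb2 and Lamb3 were added in full after their values were seen. In addition, 1 chain enters all counts but is not reported here by name or drawn by name. Pathway genes were named when called or most abundant in a role, and any other when it carried a comparison. Alternatives were 6 separate libraries, the replicate number as a block, scaling by library size, DESeq2 1.42.0, edgeR's exact test, other filters, leaving out libraries, a squamous marker covariate (log2 of the summed level) and an offset for exon length and GC content (lowess span 0.3).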

Additional observations from a re-analysis of the deposited data

How the results depend on the processing

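The median log2 fold change of the chains stayed between -0.27 and -0.14 in all 18 alternatives, and the direction of 15 of the 17 chains given in full held in each. The number of calls did not hold. Calls among the 37 chains, the 65 pathway genes and the whole table were 9, 18 and 3402 with 6 separate libraries, 11, 21 and 3919 with DESeq2, 8, 14 and 2020 with the squamous covariate, and 11, 15 and 2256 without WT3 and KO1. They were 1, 0 and 209 with edgeR's exact test, and 0, 0 and 4 with the length and GC offset. A minimum of 10 counts in every library gave 6 chains, 9 pathway genes and 937 genes. Leaving out 1 library gave 0 to 3 chains, 0 to 5 pathway genes and 0 to 418 genes. No call was made in edgeR without WT1, WT2 or WT3, although 11 chains and 3346 to 4193 genes had an unadjusted p of at most 0.05 each time. Without KO1, also together with WT3, KO is 1 sample that is assumed to vary like the WT libraries, so the counts of those fits say little about the calls. Chosen after seeing the data, the length and GC offset with 6 separate libraries gave 9, 13 and 2195. Scaling by library size moved the median of all genes to -0.04 and kept the same 4 chains called. Itga9 turned to -0.0186 with that scaling and to -0.0173 without WT3 and KO1, and ranged from -0.00737 (without KO1) to 0.0441 when 1 library was left out. Lama5 ranged from -0.0915 to 0.116 (without KO1) in the latter, and was at 2.5e-05 with 6 separate libraries, 0.11 without WT3 and KO1, 0.0122 with the length and GC offset, 0.0715 with that offset and 6 separate libraries, and 0.0630 with the offset and the block. Of the other chains, Itga5, Itga6, Itga10, Itgav, Itgb3 and Itgb7, each within 0.19 of 0, also changed sign in at least 1 alternative. Apart from the fits with fewer samples, the cause of these moves was not tested. Itgad, at 0.418 to 1.15 CPM, rests on few counts.

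The replicate numbers did not pair the samples: deviations of same-numbered libraries from their genotype means correlated at -0.48, 0.57 and -0.65, and WT3 correlated best with KO1. With the replicate number as a block and 6 separate libraries, 7 chains, 10 pathway genes and 1157 genes were called. Itga7 was among these chains (adjusted p = 0.0408). When the offset for exon length and GC content was added to this block (chosen after seeing the data), the calls were 0, 0 and 15. In that fit 17 of the 37 chains had an unadjusted p of at most 0.05, beside 4643 of all 18014 tested genes.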
